A study of Mus musculus with 4 samples.

Results

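Myeloid peaks were the stretches of open chromatin that stood out in the macrophage (Macro) and dendritic cell (Dend) nuclei of mouse inguinal white adipose tissue (iWAT). They were chosen by measured values. Nuclei were pooled by the deposited cell type into 7 pools, which were Macro with Dend, white with beige adipocytes, both clusters of adipocyte progenitor cells (APC), vascular endothelial cells (VEC), vascular smooth muscle cells (VSMC), B cells, and T cells. A peak was kept where its level in the myeloid pool was at least 20 CPM and at least 4 times that in each of the 6 other pools. CPM is the number of nuclei with a read in the peak, scaled to a total of 1000000 such entries in the pool. By this rule 643 of 189598 peaks were myeloid peaks (0.339%). A 2-fold difference between the Macro and Dend levels then split them into 87 leaning to Macro, 259 leaning to Dend and 297 leaning to neither. Because levels in the pools chose and split these peaks, those levels are given as a description, without a test.

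The study profiled iWAT of male C57BL/6 mice aged 8 weeks by single-nucleus ATAC-seq, in which the transposase Tn5 inserts sequencing adapters into accessible DNA. Mice were held at 22 °C and sampled before any intervention (day0RT), on day 1, 3 or 7 of cold exposure (day1C, day3C, day7C; 6.5 °C by the labels), or on day 1, 3 or 7 of CL-316,243 (day1CL, day3CL, day7CL; 1 mg/kg), a selective agonist of the β3-adrenergic receptor. Each of the 7 groups had 3 mice, and the mouse was the replicate. The deposited table assigned each nucleus to its mouse, group and cell type.

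Macrophages of adipose tissue clear dying cells, handle lipid and take up debris, and many carry complement and scavenger receptors. Dendritic cells sample antigen, and on maturation they switch on Ccr7, Fscn1 and costimulatory genes and move to the lymph node. Most open regions that separate blood cell types lie away from gene starts and act as enhancers, and PU.1 (encoded by Spi1) is the pioneer factor of myeloid enhancers. NF-kB family members such as Relb take part in dendritic cell maturation, and MAF family factors in resident macrophages.

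The sequences that carry the clearest difference between the sides of the split are shown first. The peaks leaning to Dend often held the letters GGGNNTTTC, a loose pattern with any base at N that is counted here as NF-kB letters. These 5 windows come from 6 Dend-leaning peaks with a high Dend CPM whose central 300 bases held the window. They were chosen after the values were seen, and the peaks need not be the highest of all that held the letters. Each runs 5′ to 3′ on the strand of the match, and capitals mark the matched letters. They are the mm10 reference sequence, and names are those of the nearest start of a protein-coding gene with a running number.
Tbc1d4_1, chr14:101463124-101463153 (forward strand): ccccacactgGGGCCTTTCctgcagaacac
E130311K13Rik_1, chr3:63931796-63931825 (forward strand): cggtaaacaaGGGAATTTCagaacattgag
Rad51b_2, chr12:79658627-79658656 (forward strand): tggaagacagGGGACTTTCaggcctggcaa
Tmem176a_1, chr6:48832819-48832848 (forward strand): ccgagccactGGGGATTTCacattcaacat
Smndc1_1, chr19:53404753-53404782 (forward strand): tgacctcacaGGGTTTTTCcattccgtgga

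Letters of the orphan nuclear receptor NR4A, AAAGGTCA, were also held more often by the Dend side than by the Macro side. Of the Dend-leaning peaks that held them, 4 with a high Dend CPM are shown, chosen within the same limits.
Tmco5_1, chr2:116953596-116953625 (reverse strand): tttggcaattcAAAGGTCAgggagaggggc
Rad51b_2, chr12:79658400-79658429 (forward strand): ctcctacttgcAAAGGTCAgacaggcttga
Fscn1_1, chr5:142959165-142959194 (reverse strand): ttcccatcatcAAAGGTCAgtcctgacaag
Tbc1d4_3, chr14:101488488-101488517 (forward strand): taatgtcacacAAAGGTCAggagaaagact

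The Macro side held more often the letters TGCTGAC, part of a MAF recognition element. These are 4 peaks with a high Macro CPM among the Macro-leaning ones that held them, within the same limits.
Tifab_2, chr13:56178879-56178908 (forward strand): gggcagagagcTGCTGACagggagttcctg
Tifab_3, chr13:56181703-56181732 (reverse strand): ttccgcctaaaaTGCTGACagtaagcattg
Nol11_1, chr11:107317968-107317997 (forward strand): cagtgagtgacTGCTGACctcagacagagg
Pygb_1, chr2:150840206-150840235 (forward strand): gccaagtggacTGCTGACaagatgagcccg

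The central 300 bases are shown whole for the most Dend-leaning peak (Cacnb3_1), the most Macro-leaning one (Nol11_1), and the promoter peaks of the gene lists with the most kinds of motif letters (Fscn1_1 and Cd80_1). They are on the forward strand of mm10, and capitals mark any of the 13 motifs searched.
Cacnb3_1, chr15:98626384-98626683: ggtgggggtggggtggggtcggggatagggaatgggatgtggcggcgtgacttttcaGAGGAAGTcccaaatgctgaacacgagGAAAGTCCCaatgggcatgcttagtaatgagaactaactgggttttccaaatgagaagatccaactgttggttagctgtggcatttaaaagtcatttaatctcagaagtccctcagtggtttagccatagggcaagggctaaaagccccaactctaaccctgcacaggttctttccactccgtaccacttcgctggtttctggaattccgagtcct
Nol11_1, chr11:107317863-107318162: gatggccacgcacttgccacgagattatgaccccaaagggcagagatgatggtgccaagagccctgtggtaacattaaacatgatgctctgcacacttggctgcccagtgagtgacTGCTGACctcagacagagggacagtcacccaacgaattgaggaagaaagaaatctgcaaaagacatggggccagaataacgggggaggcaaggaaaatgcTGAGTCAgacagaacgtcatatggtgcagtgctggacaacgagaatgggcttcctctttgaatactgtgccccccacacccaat
Fscn1_1, chr5:142959118-142959417: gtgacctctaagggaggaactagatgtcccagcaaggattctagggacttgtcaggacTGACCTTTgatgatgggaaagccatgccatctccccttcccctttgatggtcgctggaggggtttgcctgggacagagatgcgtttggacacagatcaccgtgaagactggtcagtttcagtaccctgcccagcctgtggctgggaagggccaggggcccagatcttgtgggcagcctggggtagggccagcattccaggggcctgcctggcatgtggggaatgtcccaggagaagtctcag
Cd80_1, chr16:38457229-38457528: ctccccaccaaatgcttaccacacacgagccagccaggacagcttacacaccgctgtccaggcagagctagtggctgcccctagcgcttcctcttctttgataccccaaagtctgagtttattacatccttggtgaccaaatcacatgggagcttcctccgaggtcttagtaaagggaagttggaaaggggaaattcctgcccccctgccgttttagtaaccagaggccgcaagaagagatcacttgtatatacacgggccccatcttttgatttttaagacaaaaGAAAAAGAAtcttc

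The myeloid nuclei were few. There were 1229 Macro nuclei from 21 mice, with a median of 1128 entries, and 677 Dend nuclei from 20 mice, with a median of 1335. A mouse gave 26 to 241 myeloid nuclei and 24554 to 416130 entries, so 1 entry was worth 0.304 CPM in the whole myeloid pool. In the small pools of VEC and VSMC, 1 entry was worth 1.63 and 1.3 CPM, and the 4-fold rule was coarse there. In all, 4218 barcode sequences were used by more than 1 nucleus.

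The labels were set against marker genes through the summed CPM of the peaks in each gene or up to 2000 bases upstream of it. The macrophage list summed to 737 CPM in Macro, 286 CPM in Dend and 338 CPM in VEC nuclei. Of its 10 genes 8 were higher in Macro than in Dend, all but Adgre1 and Cd68. Csf1r, the receptor of the macrophage growth factor, had 181 CPM in Macro and 57.7 CPM in Dend. The dendritic list summed to 849 CPM in Macro, 1240 CPM in Dend and 1230 CPM in B cells, so its sum did not set Dend apart from B cells. Only 5 of its 11 genes were higher in Dend than in Macro, namely Flt3, Zbtb46, Batf3, Ccr7 and Relb. Xcr1, Clec9a, Cd209a, Itgax, Ciita and H2-Ab1, which mark or equip antigen-presenting cells, were higher in Macro nuclei. Clec9a, for one, had 53.7 CPM in Macro and 30.4 CPM in Dend. The names Macro and Dend are therefore used here as the deposited annotation only. The plasmacytoid dendritic list summed to 721 CPM in Macro, 515 CPM in Dend, 718 CPM in B cells and 864 CPM in VEC. Of its 5 genes 4 were higher in Macro than in Dend. Among them, Siglech had 41.5 CPM in Macro and 9.87 CPM in Dend. The 4 of 6 neutrophil genes with a peak summed to 42 CPM in Macro, 3.8 CPM in Dend and 29.6 CPM in adipocytes. The part of plasmacytoid or neutrophil nuclei in any result was not tested. The B cell list summed to 287 and 273 CPM and the T cell list to 140 and 172 CPM. The B cell list reached 2150 CPM in B cells and the T cell list 883 CPM in T cells.

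The 643 peaks had a median of 24.3 CPM in the myeloid pool, within a range of 20.05 to 62 CPM, and 66 to 204 nuclei carried each. Their median was 21.3 CPM in Macro and 33.4 CPM in Dend nuclei. In the other pools the median lay between 0.692 CPM in adipocytes and 1.65 CPM in APC, and the highest value was 11.2 CPM, in B cells. The median fold over the highest other pool was 7.3. Of the 12449 peaks with at least 20 CPM in the myeloid pool, B cells alone kept out 489, far more than the next pool, APC, with 85. Just inside the threshold on level lay the peaks near Tnfrsf11a and Tmcc3 at 20.05 CPM, and just outside it those near Slco5a1 and Dock10 at 19.74 CPM. Just inside the threshold on fold lay the peaks near Marveld1 (4.003) and Tnfsf9 (4.004), and just outside it those near Snx8 (3.98) and Ptpn2 (3.972).

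**Figure D1:**
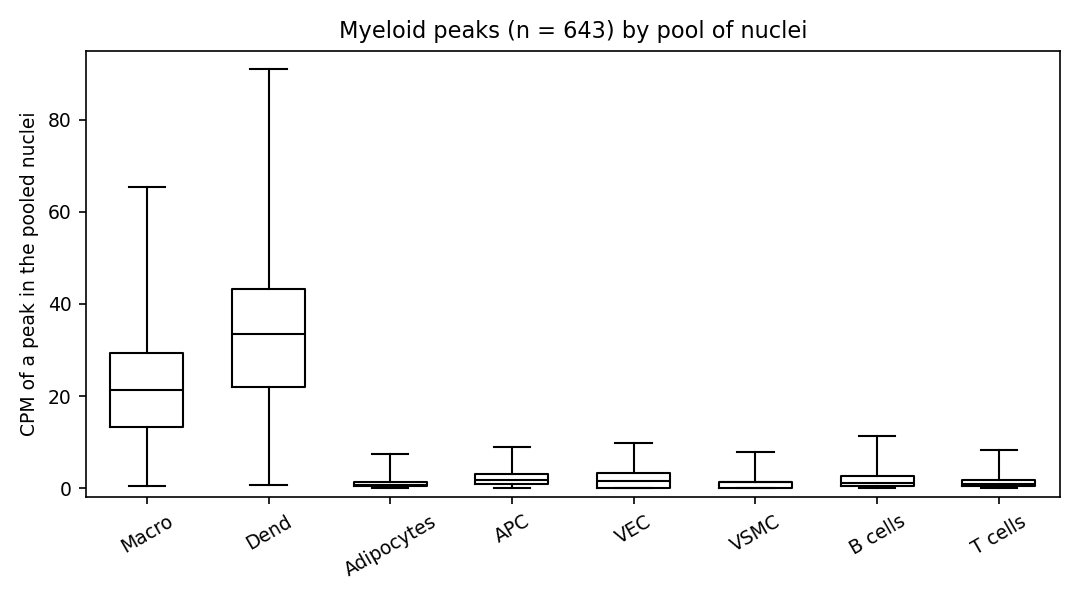
Level of the 643 myeloid peaks in CPM (vertical axis, linear) in the pooled nuclei of each cell type. Boxes span the quartiles with the median as a line, and whiskers reach the lowest and highest peak; the medians of 21.3 CPM in Macro and 33.4 CPM in Dend stand above the highest other value of 11.2 CPM, as the rule required of the pool.

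Of the Dend entries 2.19% lay in myeloid peaks, against 1.38% of the Macro entries and 0.0735% to 0.135% in the other pools. Within the 17 mice with at least 10 Dend nuclei, the Dend share was above the Macro share in all 17. The same entries chose the peaks, so this count is a description. For peaks chosen without day0RT, described below, the order turned in day1C mouse 3 (1.25% in Dend, 1.34% in Macro). It also turned in day1CL mouse 2 (1.25% and 1.29%) and held in the other mice. For the 643 peaks, the Dend-leaning ones made up most of the gap, with 1.23% of Dend and 0.293% of Macro entries. Peaks leaning to neither side held 0.864% of Dend and 0.786% of Macro entries. The Macro-leaning peaks held 0.3% of Macro and 0.0935% of Dend entries.

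The highest level belonged to an intergenic peak nearest to Dppa3, a maternal factor of the early embryo, at chr6:122654191-122654805. It had 54.2 CPM in Macro and 73.6 CPM in Dend nuclei, and 4.69 CPM in B cells, the next pool. In single mice it ran from 0 over a median of 53.6 to 102 CPM in Macro, with an entry in 20 of 21 mice. In Dend it ran from 29.5 over 74.4 to 167 CPM, with an entry in all 17 mice. The second highest, within an intron of Tiam1, an exchange factor of the GTPase Rac, had 43.5 CPM in Macro and 67.6 CPM in Dend nuclei. A peak 13610 bases downstream of the start of Batf3, a transcription factor needed for cross-presenting dendritic cells, had 43.5 CPM in Macro and 64.5 CPM in Dend. All 3 were in the group that leaned to neither side. So were the peaks near Gsdmd, the pore-forming effector of pyroptosis (48.9 CPM in the myeloid pool), in an intron of Cttnbp2nl (48 CPM), in an intron of Slc12a7, a potassium-chloride cotransporter (51.6 CPM), and in an intron of Rad51b (48.9 CPM).

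The other 3 of the 10 highest leaned to a side. A peak in an intron of Cadm1, an adhesion molecule known from Batf3-dependent dendritic cells, leaned to Macro with 65.3 against 24.3 CPM. The peak near Tmem176a, a membrane channel protein of myeloid cells, leaned to Dend with 79.7 against 27.9 CPM. The peak near Ppp1r1c did so with 79 against 26.8 CPM.

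On the far Dend side, 5 peaks were almost silent in Macro nuclei. The peak 4307 bases upstream of Cacnb3, a subunit of voltage-gated calcium channels, was found in 80 Dend nuclei and 1 Macro nucleus (60.7 and 0.506 CPM), a log2 ratio of -6.33. Per mouse it ran from 0 over a median of 48.2 to 114 CPM in Dend, with an entry in 15 of 17 mice. A peak in an intron of Tbc1d4, a Rab GTPase-activating protein, was found in 79 Dend nuclei and 1 Macro nucleus. Peaks in an intron of Dscaml1 (74 Dend nuclei) and near Gramd1b (70), a sterol carrier, were each found in 1 Macro nucleus. So was a peak 413784 bases upstream of Atp2b1 (73), a calcium pump. With 1 nucleus on the Macro side, these ratios rest on very few counts.

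On the far Macro side, the peak in an intron of Pitpnc1, a phosphatidylinositol transfer protein, with Nol11 as its nearest start, was found in 82 Macro nuclei and 1 Dend nucleus (41.5 and 0.759 CPM), a log2 ratio of 5.20. It had an entry in 19 of 21 mice in Macro and in 1 of 17 in Dend. The peak 33155 bases upstream of Tada1 was found in 70 Macro and 3 Dend nuclei, and that 101575 bases upstream of Ednrb in 63 and 3. A peak in Cd33, an inhibitory sialic acid receptor of myeloid cells, was found in 70 and 4. A peak in an intron of Clec4a2, an inhibitory C-type lectin, was found in 71 and 5.

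**Figure D2:**
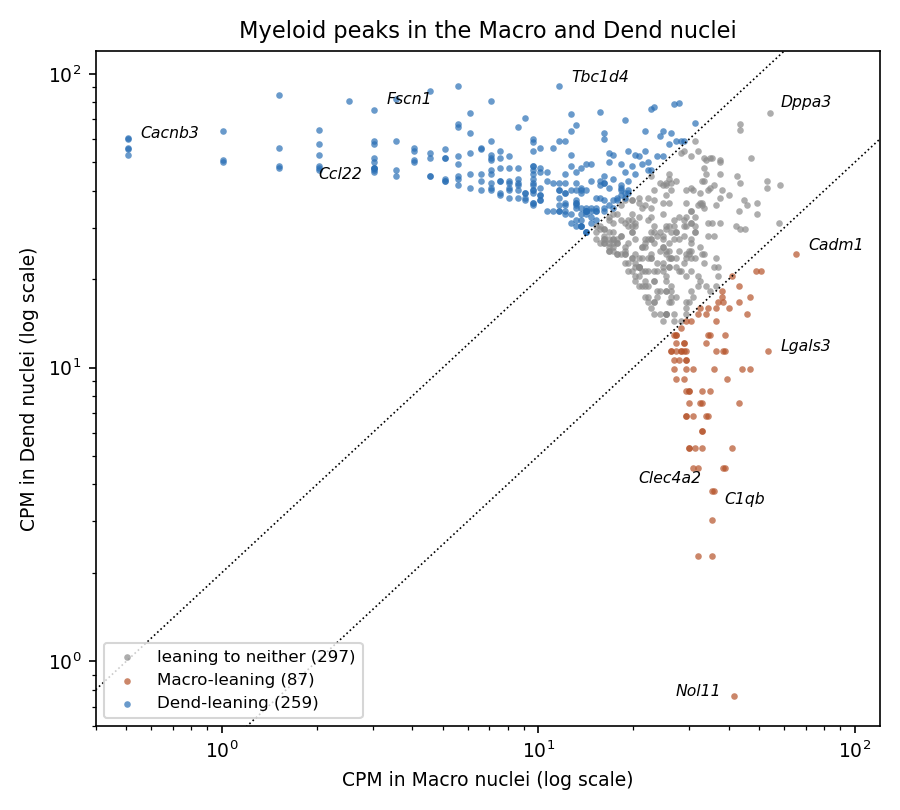
CPM of each of the 643 myeloid peaks in Macro nuclei (horizontal, log scale) and Dend nuclei (vertical, log scale), coloured by side, with dotted lines at a 2-fold difference and names of the nearest gene. The 259 Dend-leaning peaks reach down to 0.506 CPM in Macro, and the 87 Macro-leaning peaks reach down to 0.759 CPM in Dend.

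Gene lists of myeloid function, chosen with earlier results of these data known, held 148 genes. Of these genes, 27 were the nearest start of a myeloid peak, against 539 of all 21951 protein-coding genes, given as a description. The 27 listed genes had 36 such peaks, of which 8 leaned to Macro, 8 to Dend and 20 to neither. The nearest start is only a label and need not be the gene a region acts on. Of 24 transcription factors, 7 had a peak. Spi1, which encodes PU.1, had 1 in its own intron with 23.3 CPM in Macro and 40.2 CPM in Dend. Runx1, a regulator of blood cell formation, had 1 with 33.4 and 51.6 CPM. Relb, the NF-kB subunit of maturing dendritic cells, had 1 within the neighbouring Clptm1 that leaned to Dend (7.09 and 47.1 CPM). Klf4, a factor of monocytes and macrophages, had 1 at 209043 bases upstream that leaned to Macro (27.3 and 12.9 CPM). Zeb2, a repressor active across myeloid lineages, had 2, at 80111 and 118961 bases upstream, of which 1 leaned to Macro and 1 to neither.

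Over all 643 peaks 40.3% leaned to Dend, and of the 36 peaks of the lists 8 did. None of the 11 peaks nearest to genes of the lists of growth factor receptors, of Fc receptors, complement receptors and integrins, of pattern receptors and lectins, and of phagocytosis, lysosome, lipid and complement did so. Flt3, the growth factor receptor of dendritic cells, was the nearest start of no myeloid peak but held 2 Dend-leaning ones in its introns (33.4 and 47.8 CPM in Dend, 12.7 and 3.04 CPM in Macro), whose nearest start was that of Urad. Csf1r had a Macro-leaning exonic peak with 33.9 CPM in Macro and 6.83 CPM in Dend. Cx3cr1, the fractalkine receptor, had a Macro-leaning peak with 29.9 CPM in Macro and 7.59 CPM in Dend. C1qb, a chain of the complement starter C1q, had a peak 120 bases upstream of its start with 35.4 CPM in Macro and 3.8 CPM in Dend, found in 20 of 21 mice in Macro. Lgals3, the lectin galectin-3 of lipid-associated macrophages, had a peak with 53.2 and 11.4 CPM. Cd36, a fatty acid and scavenger receptor, had an intronic peak at 36.5 and 35.7 CPM, and Axl, a receptor for dying cells, one at 33.4 and 24.3 CPM. The promoter peak of Nlrp3, an inflammasome sensor, had 26.8 and 15.2 CPM. Of these lists, the 10 Fc receptors, complement receptors and integrins had 2 peaks, the 22 pattern receptors and lectins 3, and the 23 genes of phagocytosis, lysosome, lipid and complement 4. The 19 genes of proximal signalling and oxidative burst had 3, of which that near the inhibitory receptor Lilrb4a leaned to Macro (28.9 and 9.11 CPM).

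Of the 4 peaks of the 18 genes of antigen presentation and costimulation 3 leaned to Dend, as did 2 of the 4 peaks of the 25 cytokines and chemokines, and none of these 8 leaned to Macro. Fscn1, which bundles actin in dendrites, had a peak 1076 bases upstream of its start with 75.2 CPM in Dend and 3.04 CPM in Macro. In single mice it ran from 28.3 over 79.8 to 122 CPM in Dend, with an entry in all 17 mice, and it was found in 3 of 21 mice in Macro. The promoter peak of Ccl22, a chemokine that draws T cells, had 51.6 and 3.04 CPM. The 2 peaks upstream of Ccr7, the receptor for migration to the lymph node, had 56.2 and 70.6 CPM in Dend and 4.05 and 9.11 CPM in Macro. A peak near Il12b, a subunit of interleukin 12, had 54.7 and 19.2 CPM. Cd80, a costimulatory ligand, had an intronic peak within 2000 bases of its start that leaned to neither (28.8 and 27.3 CPM). The peaks 9919 bases upstream of the cytokine Il1b and 64741 bases upstream of the cytokine Il6 also leaned to neither.

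Some loci held several myeloid peaks. Id2, a regulator needed for several dendritic and innate lymphoid cells, was the nearest start of 5, all upstream of it and 60273 bases or more away, of which 2 leaned to Dend. All 5 peaks at Slc7a11, the cystine-glutamate antiporter, leaned to Dend, with 34.2 to 60 CPM in Dend and 3.04 to 16.2 CPM in Macro. So did all 5 at Zfp366, a repressor known from dendritic cells (41.8 to 59.2 and 5.57 to 12.2 CPM). The 4 peaks at Rbpj, the effector of Notch signalling, were mixed, with 1 leaning to Macro and 1 to Dend, and of the 4 nearest to Zfp236 1 leaned to Dend. At Tifab all 3 leaned to Macro (38.5 to 46.6 and 4.56 to 19 CPM). In all, 539 genes were the nearest start of a myeloid peak, and 460 of them of only 1. Of all peaks, 106 had Id2 as their nearest start, 45 Slc7a11, 47 Zfp366, 49 Rbpj and 29 Zfp236. Batf3, Tifab and Dppa3 had 3 myeloid peaks each, among 18, 14 and 8 peaks nearest to them. The order by count is thus not an order by share.

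Myeloid peaks lay mostly away from gene starts. Within 2000 bases of a start were 45 of them (7%), against 10.1% of all peaks, 5.99% of the peaks that the same rule gave for B cells and 5.43% of those for T cells. Of the myeloid peaks 52.4% were intronic, 43.1% intergenic and 4.51% exonic. Their median length was 499 bases, against 392 for all peaks. Their median GC content over the central 400 bases was 48.2%, close to the 47.2% of all peaks.

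The motif letters were not used to choose the peaks, and they were counted on both strands of the central 400 bases. The PU.1 letters GAGGAAGT were found in 93 of the 643 (14.5%), against 5.61% of all peaks, 11.2% of the B cell peaks and 7.88% of the T cell peaks. The composite ETS-IRF letters GGAANNGAA were in 25% against 13.5% of all peaks. The NF-kB letters GGGNNTTTC were in 20.8% against 8.11% of all peaks, 8.06% of the B cell and 5.94% of the T cell peaks. AP-1 letters TGANTCA were in 21.8% against 15.3%, and IRF letters GAAANNGAA in 19.4% against 14.4%. RUNX letters TGTGGTT were in 15.7% against 11.1% of all peaks, while the T cell peaks held them in 30%. C/EBP letters TTGCNNAA were rarer than in all peaks (17.6% against 22.4%), as were CTCF letters CCACNAGGG (1.4% against 2.52%). EBF letters CCCNNGGGA were in 7.47% against 8.43% of all peaks and 13.7% of the B cell peaks. MITF E-box letters TCACGTGA and ESRR letters TCAAGGTCA were in under 1% of the myeloid peaks, with 0.467% and 0.311%. None of the 13 motifs was found in 97 of the peaks. PU.1 and ETS-IRF letters can overlap, and 35.9% held at least 1 of them, against 18.1% of all peaks.

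The sides of the split differed in their letters. NF-kB letters were in 82 of 259 Dend-leaning peaks (31.7%), in 14.8% of those leaning to neither and in 8 of 87 Macro-leaning peaks (9.2%), the last close to all peaks. From the same nuclei, the paper had reported NF-kB family motifs as enriched in its dendritic cells relative to other immune cells. The share given here is therefore not independent of that result. NR4A letters were in 10.8% of Dend-leaning and 2.3% of Macro-leaning peaks, with 3.24% in all peaks. The Macro-leaning share of NR4A letters, like that of the EBF letters given next, rests on very few of the 87 peaks. EBF letters were in 9.65% and 3.45%, IRF letters in 21.6% and 16.1%, and AP-1 letters in 23.6% and 20.7% of the Dend-leaning and Macro-leaning peaks. MAF letters went the other way, with 14 of 87 Macro-leaning (16.1%) and 6.95% of Dend-leaning peaks, against 7.85% of all peaks. PU.1 letters were in 16.1% of Macro-leaning, 17.5% of neither and 10.4% of Dend-leaning peaks, above the share in all peaks on each side. A match of letters is a description of the sequence and not a bound site.

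**Figure D3:**
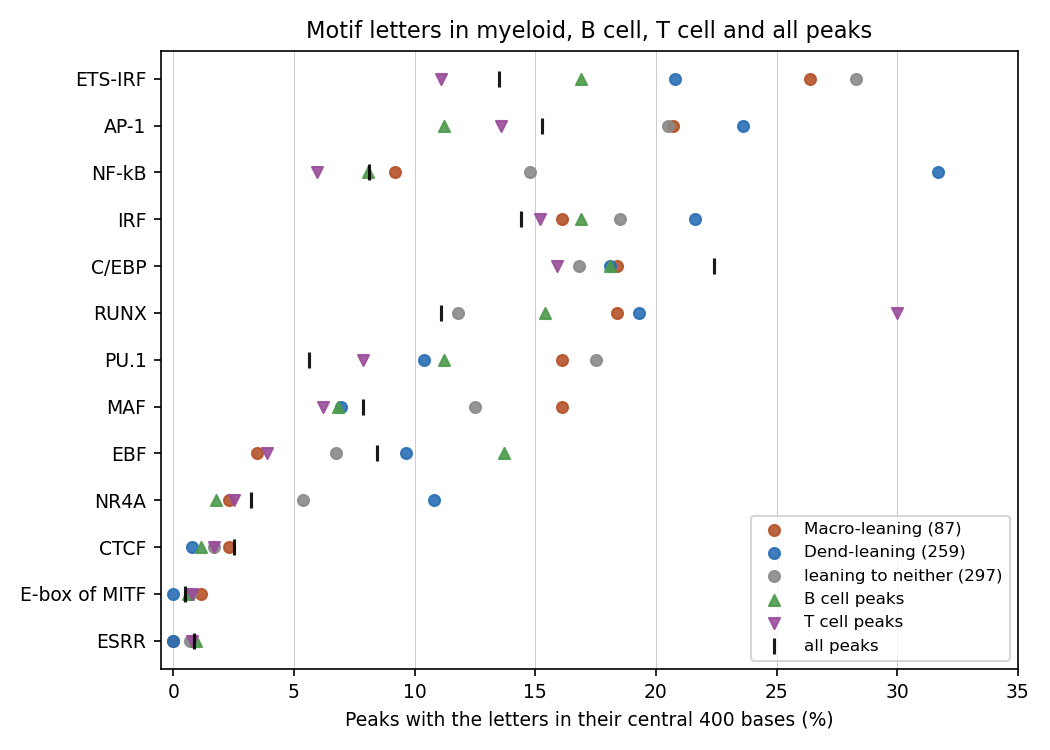
Share of peaks in percent (horizontal) whose central 400 bases hold the letters of each of 13 motifs (rows), for the 3 groups of myeloid peaks (circles), B cell and T cell peaks (triangles) and all peaks (bars). NF-kB letters stand at 31.7% in Dend-leaning and 9.2% in Macro-leaning peaks, and MAF letters at 6.95% and 16.1%.

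Treatment was compared next, as the study asked how cold and CL change the tissue. The share of entries that lay in myeloid peaks was 2.3%, 2.36% and 2.49% in the Dend nuclei of the 3 day0RT mice, a mean of 2.38% ± 0.0974 (SD, n = 3). In the 14 treated mice with at least 10 Dend nuclei it ran from 1.8% over a median of 2.04% to 2.42%, and the ranges overlapped in 1 mouse of day7C. In Macro nuclei it was 1.52% ± 0.076 (SD, n = 3) in day0RT and ran from 1.13% over 1.35% to 1.52% in the 18 treated mice. The treated group means were 1.31% to 1.41% in Macro and 1.95% to 2.19% in Dend, where the mean of day3CL was that of 1 mouse and those of day3C and day1CL of 2, and no test was run on them, since the same nuclei chose the peaks. The day0RT mice gave 31% of the myeloid entries and 47.5% of the Dend entries, so they weighed most in that choice. When the same rule was run without them it gave 482 peaks, of which 418 were shared. In this other set Macro was the larger side, with 131 leaning to Macro and 98 to Dend. Among the 643, all 259 Dend-leaning peaks were still higher in Dend in the pooled treated mice, and all 87 Macro-leaning ones in Macro. The same nuclei split these peaks, so this is a description. The share of Dend entries in these 482 peaks was 1.49% ± 0.0756 (SD, n = 3) in day0RT against 1.25% to 1.62% in treated mice. In Macro nuclei it was then 1.31% ± 0.0531 in day0RT (SD, n = 3) and 1.12% to 1.44% in treated mice. For these 482 peaks, as for the 643, the ranges of day0RT and treated mice overlapped in both cell types. In Dend the mean over the 14 treated mice was 1.36% for the 482 peaks and 2.04% for the 643, below day0RT in both sets. In Macro the means over the 18 treated mice were 1.25% and 1.35%, also below day0RT. A choice on treated mice alone is not independent of treatment either.

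The make-up of the myeloid nuclei varied between groups and between mice of a group, and no test was run on it. Dend nuclei were 53.1% ± 15 of Macro and Dend nuclei in day0RT, 29.4% ± 5.52 in day1C, 16.5% ± 10.1 in day3C and 44.6% ± 2.69 in day7C (SD, n = 3 each). They were 27.3% ± 21.1 in day1CL, 14% ± 12.3 in day3CL and 31.8% ± 19.6 in day7CL (SD, n = 3 each). The day0RT mice ran from 36.1% to 63.9%, and their range overlapped with those of day7C, day1CL and day7CL. In sums over Macro and Dend, fewer nuclei of a type and less open chromatin per nucleus cannot be told apart.

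**Figure D4:**
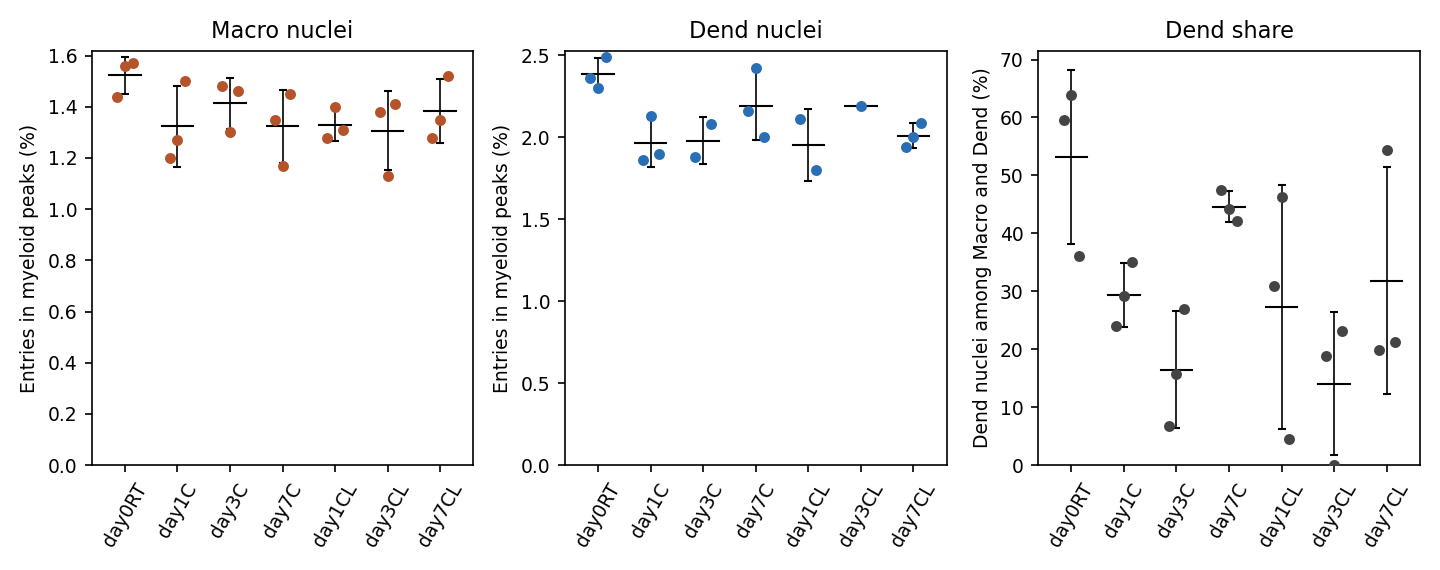
Percent of entries in the 643 myeloid peaks per mouse (points) in Macro nuclei (left) and in Dend nuclei of mice with at least 10 of them (middle), and Dend nuclei as a percent of Macro and Dend nuclei (right), by group; lines are means and bars 1 SD, with no bar for the single day3CL mouse. The day0RT mice sit at 2.3% to 2.49% in the middle panel, and their mean Dend share of 53.1% is the highest of the 7 groups.

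Entries were summed over Macro and Dend nuclei per mouse and compared in edgeR (quasi-likelihood F test), with Benjamini-Hochberg adjustment across every peak tested. The filter on low counts left 2461 peaks, of which 8 were myeloid peaks, so the test says nothing of the other 635. Of the 8, 3 leaned to Macro, 5 to neither and 0 to Dend. Since the day0RT mice weighed most in the choice of the peaks and of their sides, no contrast against day0RT is independent of that choice, and the p-values below take no account of it. None of these 8 passed an adjusted p of 0.05 in any of 9 contrasts. Against day0RT, 0% of all 2461 peaks were called for the mean of the cold groups and 0% for the mean of the CL groups, and 0% between these means. Of the single groups, only day1CL had calls, 6 peaks (0.244%), none of them myeloid. At an unadjusted p under 0.05, edgeR had 0 of the 8 for cold (5.28% of all peaks tested), 2 for CL (7.03%) and 0 for CL against cold (4.35%), and DESeq2 had 0 (1.63%), 1 (2.19%) and 0 (1.79%).

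For the mean of the CL groups the lowest p-values belonged to the 3 Macro-leaning peaks among these 8. The filter asked for a set level in at least 3 mice of any group. No day0RT mouse reached that level at the Lgals3 or Cadm1 peak, so both peaks passed through treated mice. The filter thus favoured a rise against day0RT at these peaks, and the p-values take no account of it. The Tgif1 peak passed the same filter. Its levels in the day0RT mice are not given here, so its rise may carry the same limit. The peak 5809 bases upstream of Lgals3 had 16.8, 20.7 and 27.5 CPM in the day0RT mice, and 0 to 163 CPM with a median of 40.5 in the 9 CL mice, where the highest value came from 4 of 26 nuclei in the shallowest library. Its log2 fold change for the CL groups was 1.21 (SE 0.44, edgeR p = 0.00552, adjusted p = 0.507), and for the cold groups 0.81 (SE 0.46, adjusted p = 0.918). In Macro nuclei alone the day0RT mice had 32.7, 37.3 and 71.4 CPM and the CL mice 0 to 163 CPM with a median of 48.3, and the log2 fold change was 0.47 (SE 0.45, edgeR adjusted p = 0.978). The Cadm1 intronic peak had 28.8, 35.8 and 57.9 CPM in day0RT and 0 to 120 CPM with a median of 59.1 under CL, with a log2 fold change of 0.66 (SE 0.32, edgeR adjusted p = 0.694). The peak near Tgif1, a repressor in TGF-β signalling, had 0.59 for CL (SE 0.43, edgeR adjusted p = 0.840), which turned to -0.49 with the Dend share as a covariate. Next in the cold contrast were the peaks in Cadm1 (0.43, SE 0.32, edgeR adjusted p = 0.956) and Rad51b (0.34, SE 0.30, edgeR adjusted p = 0.968). Between CL and cold the lowest p-values were those of the peaks near Swap70 (0.38, SE 0.34, adjusted p = 0.979), Lgals3 (0.40, SE 0.37, adjusted p = 0.979) and Rad51b (-0.33, SE 0.31, adjusted p = 0.979). Across the 6 single-group contrasts the lowest adjusted p was 0.268, in day1CL, for Lgals3 (1.49, SE 0.52) and Tgif1 (1.32, SE 0.46). Lgals3 also had the lowest p in day1C (1.33, SE 0.55, edgeR adjusted p = 0.952) and day3CL (1.50, SE 0.63, edgeR adjusted p = 0.997), and Cadm1 in day3C (0.93, SE 0.39, edgeR adjusted p = 0.702). On day 7 the lowest p-values were those of Dppa3 under cold (-0.23, SE 0.35, edgeR adjusted p = 0.998) and Cadm1 under CL (0.70, SE 0.41, edgeR adjusted p = 0.959). Next in order came Rad51b and Dppa3 in day1C, Nkd2 in day1CL, Tgif1 and Rad51b in day3C, Cadm1 and Swap70 in day3CL, Cadm1 and Lgals3 in day7C, and Lgals3 and Tgif1 in day7CL, with log2 fold changes from -0.28 for Dppa3 in day1C to 0.83 for Tgif1 in day3C. None of these passed.

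Without the filter all 643 could be tested, and the calls depended on the scaling. With TMM factors edgeR called 7 myeloid peaks for cold, where 0.0151% of 172363 peaks were called, and 20 for CL (0.0516%), all lower and all Dend-leaning. Dend-leaning peaks were chosen on levels to which day0RT gave 47.5% of the Dend entries, so a lower level than in day0RT was partly built in, and these calls are a description. In that fit the TMM factor was 0.675 in the deepest and 2.18 in the shallowest mouse, and the median log2 fold change of all peaks was -0.34 for cold and -0.26 for CL. The factors ran from 0.675 to 2.18, against 0.866 to 1.22 with the filter. With library totals instead, 0 were called for cold (0% of all peaks), with 160 of 643 at an unadjusted p under 0.05 (4.49% of all peaks), and 6 for CL (0.00986% of all peaks), all lower. These 6 lay near Klhl38, Tmco5, Slc30a4, E130311K13Rik, Etv3 and Rps27l, and they are named after their values were seen. With the mouse number as a replicate block 0 of the 643 were called. Klhl38 had 33.1, 50.5 and 52.3 CPM in day0RT and 0 to 43.5 CPM with a median of 7.46 under CL, a log2 fold change of -3.07 (SE 0.59). Tmco5 had 49.6, 57.7 and 74.4 CPM in day0RT and 0 to 65.8 CPM with a median of 21.7 under CL, a log2 fold change of -1.79 (SE 0.36). For the other 4 it ran from -1.45 at Etv3 to -2.93 at Rps27l. Without the filter, edgeR called none of the 643 for CL with Dend nuclei alone, with Macro nuclei alone or with the Dend share as a covariate, where 0% of all peaks were called. At an unadjusted p under 0.05 these fits had 57 (1.83% of all peaks), 53 (3.19%) and 59 (3.84%), with library totals in the first 2 and TMM in the last. The day0RT mice weighed most in the choice of the 643, so these counts and the 160 for cold are a description. In Dend nuclei alone, Klhl38 had 58.5, 67.7 and 70.5 CPM in day0RT and 0 to 67.3 CPM in the 6 CL mice with enough Dend nuclei. Tmco5 had 90.1, 92 and 104 CPM there and 0 to 103 CPM. Both pairs of ranges overlapped.

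By side, the fit on library totals without a filter gave median log2 fold changes for CL of 0.49 over the 87 Macro-leaning peaks, -0.95 over the 259 Dend-leaning ones and -0.28 over those leaning to neither, with 0 over all peaks tested. For cold they were 0.27, -0.74 and -0.23. The sides come from the same levels that chose the peaks, so these medians are a description too. In Macro nuclei alone the CL medians of Macro- and Dend-leaning peaks were -0.03 and -0.49, and in Dend nuclei alone -0.67 and -0.38, where the median of all peaks was -0.37. With the Dend share as a covariate, TMM and no filter they were -0.59 and -0.62, where the median of all peaks was -0.43.

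**Figure D5:**
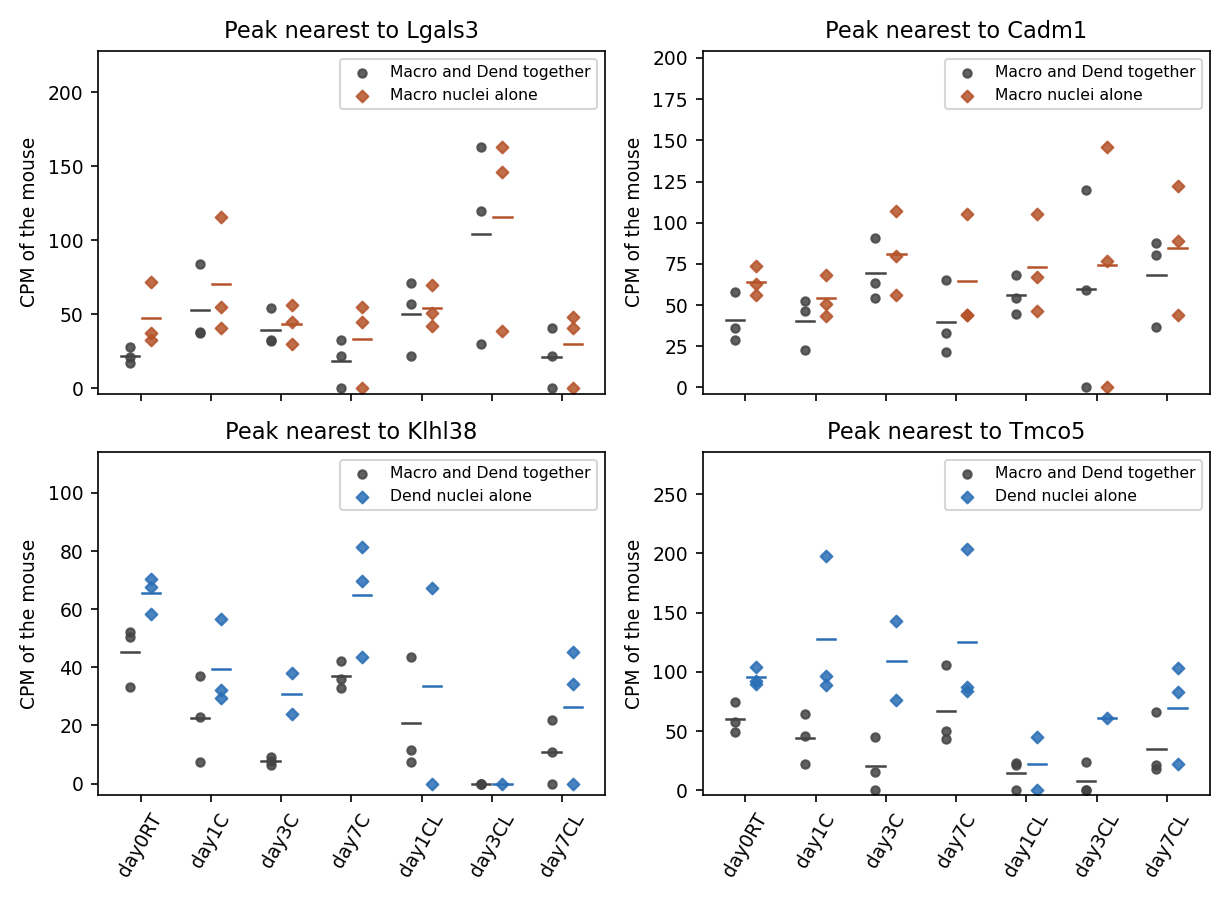
CPM per mouse (vertical) of 4 myeloid peaks by group, in Macro and Dend nuclei together (circles) and in the Macro or Dend nuclei alone (diamonds), with lines at group means. The Lgals3 peak reaches 163 CPM in 1 day3CL mouse, and the Klhl38 peak is at 0 in all day3CL mice, of which 1 had enough Dend nuclei to show alone.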

How the data were processed

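The authors deposited a binary matrix of peaks by nuclei with a table of the mouse, group and cell type of each nucleus. Per the labels and the study's methods, they aligned reads with Bowtie2 to mm10, called peaks with MACS2 per cluster, removed doublets and low-quality nuclei, and clustered with Signac and Seurat. The deposited unit is counts. Every entry is 0 or 1, so a sum gives the nuclei with reads in a peak, which understates differences where most nuclei are open. The 4 deposited libraries were sequencing lanes and carried no group, so groups came from the deposited table.

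Entries were summed per mouse and cell type (24554 to 416130 for Macro with Dend), leaving out any sum of under 10 nuclei. Genes came from GENCODE vM21, and peak positions are as deposited, with the base of counting not stated. Printed windows count from 1. Tests were two-sided in edgeR 4.0.16 (TMM, filterByExpr) and DESeq2 1.42.0 under R 4.3.3, fitted over 7 groups. The edgeR fit with the filter was tested on simulated counts with known changes, and the fits without the filter were not. The simulated counts had the same spread for all peaks and no shift in the Dend share. The outcome is not given here, and no support is drawn from it. Sums used Python 3.11.15. Named peaks were the 10 highest, the 5 most extreme on each side with at least 30 entries, promoter peaks of the lists, the loci with most peaks, those nearest to the thresholds, and the lowest p-values per contrast. The members and lists were chosen with earlier results of these data known. Alternatives varied the rule, split, filter, scaling, tool, cell type, nuclei and window, and left out each mouse. The window of 1 of the 6 peaks chosen to show NF-kB letters is not reported here.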

Additional observations from a re-analysis of the deposited data

How the results depend on the processing

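The number of myeloid peaks was 275 with a fold of 8, 2702 with a minimum of 10 CPM, 35 with a minimum of 40 CPM, and 556 to 675 with 1 mouse left out. A 3-fold split left 44 leaning to Macro and 164 to Dend, and with 1 mouse left out 80 to 89 and 251 to 261 of the 643 leaned so. With the peaks chosen anew as well, 65 to 100 leaned to Macro and 182 to 294 to Dend with 1 mouse left out. By the mean over mice 102 and 138 did so, and without day0RT 131 and 98, where Macro became the larger side. Without the filter on low counts 7 were called for cold, 20 for CL and 1 for day3C. With library totals as well, 6 were called for CL and 1 for day3C (alternatives chosen after seeing the data), and more peaks enter these fits. The day3C call was E130311K13Rik in both fits. The share of all peaks called for day3C there is not given, so this call cannot be set against it and is not read as a result. With at least 30 nuclei 1 was called for day1CL (Tmco5), where 7 of 3206 peaks were called. With 1 mouse left out, 0 to 1 were called for CL, 0 to 1 for day3C and 0 to 2 for day1CL, in fits that called 1 to 15 of 3206 to 3592 peaks where a myeloid peak was called. These were Tmco5 for CL (without day1C replicate 2, day3C replicates 1 or 2, or day1CL replicates 1 or 2), E130311K13Rik for day3C, and Tmco5 and, without day1CL replicate 2, Tspan3 for day1CL, and the other contrasts had 0. For CL the log2 fold change of Tgif1 turned to -0.49 with the Dend share as a covariate and, without the filter, to -0.93 with that covariate, -0.38 or, with library totals, -0.13 in Macro nuclei alone, and -0.04 in Dend nuclei alone. That of Cadm1 turned to -0.15 and -0.18 in Macro and in Dend nuclei alone without the filter. With nuclei of at least 2000 entries the share of entries in myeloid peaks was 1.11%, 1.25% and 1.05% in Macro of day7C, day1CL and day3CL, and 2.26%, 1.67%, 2.2% and 1.83% in Dend of day0RT, day1C, day3CL and day7CL. The MITF E-box share over that of all peaks turned to 1.2 in the whole peak. The cause of these changes was not tested. The other 552 of 601 alternatives were labelled as unchanged. For counts and motif ratios this meant a value equal to the main one or within a set fold of it. For shares of entries it meant a difference under 1 SD or none after rounding, and for log2 fold changes the same sign and call. The change of the larger side without day0RT was not among the 601. The deposited table numbers the mice 1 to 3 in each group, and the labels tie these numbers to no litter or day. The paper states that its 3 snATAC-seq batches were run independently, and does not say whether the mouse numbers mark them. Deviations from the group means correlated at -0.055 to 0.0535 between mice of the same number. Between mice of different numbers they correlated at -0.0707 to 0.0537. As 8 of 21 mice correlated best with their own number, the numbers were not taken as pairs. All these correlations were weak, so the check cannot tell whether the numbers mark batches. With the number as a replicate block (chosen after seeing the data), 0 of the 8 peaks were called in any contrast, and without the filter and with library totals 0 of 643, where the same fit without the block called 6 for CL. Depth let 8 of 643 peaks pass the filter.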
